A study of Mus musculus with 13 samples.

Results

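The 7 libraries described here are the MMP high haematopoietic stem cells (HSCs) of 4 young and 3 old samples, of 13 libraries in all. They were chosen by their sample titles, Young MMP high and Old MMP high, and not by any measured value. The series sequenced RNA of HSCs sorted by mitochondrial membrane potential (MMP), the voltage across the inner mitochondrial membrane, and the remaining 6 libraries are MMP low HSCs, 3 of each age. All mice were untreated C57BL/6 Jrj animals, young ones 8 to 12 weeks old and old ones over 18 months old. In every group the marrow was enriched for Kit and live cells were sorted as Lin- Kit+ Sca1+ CD48- CD150+, the SLAM definition of an HSC, into TRIzol. Libraries came from a Nextera XT kit with reaction volumes reduced 20-fold. The sources used here do not give the dye or the gate that set MMP high apart from MMP low, so what a high potential means at each age is known only from the titles. The question is how the transcripts of MMP high HSCs differ between old and young mice.

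HSCs sit at the top of blood formation and divide rarely. With age they grow in number, regenerate lymphoid cells less well and carry more transcripts of platelet, adhesion and stress genes. A high membrane potential accompanies active respiration, and in HSCs it has been linked to metabolic activation and cell cycle entry.

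Total counts in the 7 libraries ran from 8537834 to 10041109, and 18799 to 25567 gene symbols had a count. No 2 libraries held identical counts. Young MMP high 4 stood apart on the first principal component of log2 CPM (counts scaled to equal library size), at 118.4 against -42 to 5.8 in the others. That component held 36.0% of the variance. The second component (20.5%) placed Old MMP high 2 and 3 at -58.1 and -57.7, Old MMP high 1 at -1 and the young libraries between 12.3 and 42.4. Library names fall into an L and an N series of unstated meaning. The L series holds Young MMP high 1 and 2 and Old MMP high 1, and the N series holds the other 4. Transcripts of mature blood cells varied widely within both ages. Summed granulocyte and monocyte markers ran from 2408 CPM (Young MMP high 4) to 49190 CPM (Young MMP high 3), and from 5686 to 25480 CPM in old libraries. Erythroid genes ran from 4556 to 42760 CPM in young and from 5262 to 13420 CPM in old libraries.

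Few genes passed the test, and nearly all of those were higher in old cells. Of 17125 genes tested, 25 were called at an adjusted p of 0.05 (0.146%), 23 higher in old MMP high HSCs (0.134%) and 2 lower (0.0117%). The test was edgeR's quasi-likelihood test with Benjamini-Hochberg adjustment over all genes, and it gives each adjusted p below. The smallest change called was 2.71-fold, and the median size of the called changes was 2.40 on the log2 scale. Over all genes the median log2 fold change was 0.001, and the middle 50% lay between -0.28 and 0.31. At an unadjusted p of 0.05, 1303 genes differed (7.61%). Of these, 815 were higher (4.76%) and 488 lower (2.85%). In all 25 called genes the old and young libraries did not overlap, which was so for 1962 of all genes (11.5%). Whether the libraries of a group come from separate animals is not in the labels. The p-values therefore rest on a spread between libraries that can be partly technical. In bulk RNA, a change in the share of cells that carry a transcript and a change in RNA per cell cannot be told apart.

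**Figure D1:**
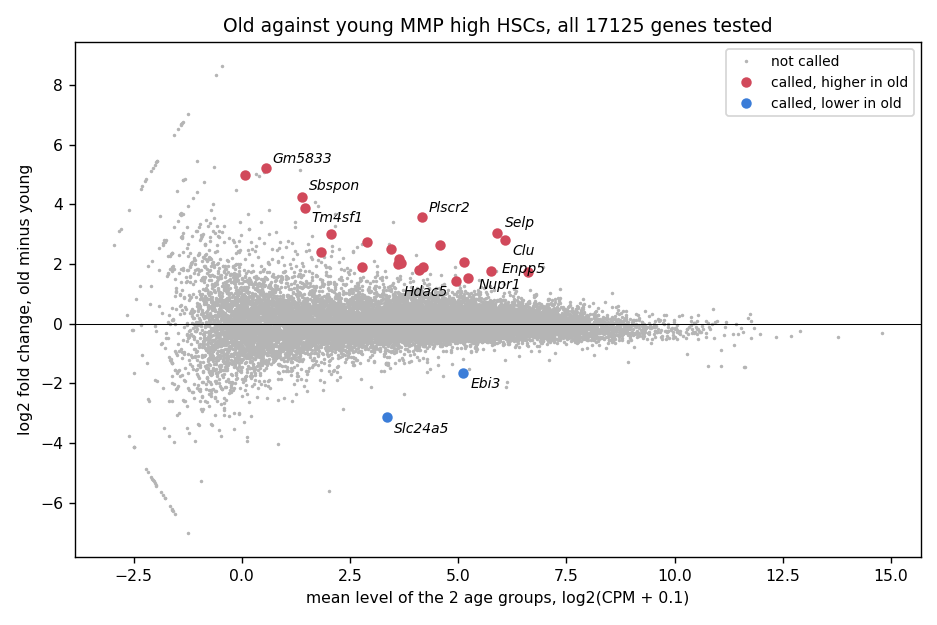
Log2 fold change of old over young MMP high HSCs (vertical axis) against the mean level of both ages as log2(CPM + 0.1) (horizontal axis, a log scale) for the 17125 genes tested. Red points are the 23 genes called higher in old, blue points the 2 called lower and grey points the rest, which spread more widely at low levels.

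The called genes are described by what their products do, beginning with proteins of the cell surface and of lipid handling. Plscr2, of the phospholipid scramblase family, was at 4.06, 7.91, 3.32 and 5.12 CPM in Young MMP high 1 to 4 and at 49.9, 71.4 and 62.9 CPM in Old MMP high 1 to 3. It rose by 3.58 ± 0.34 on the log2 scale (SE, 4 young and 3 old libraries; adjusted p = 0.000704), with the smallest p of any gene. The lowest old library lay far above the highest young one. Selp, the adhesion receptor P-selectin of platelets and endothelium, was at 28.5, 31.1, 12.7 and 10.57 CPM in the young libraries and at 144.5, 175.6 and 197.8 CPM in the old ones (3.05 ± 0.32, adjusted p = 0.00149). The young values split by library series, with both L libraries above both N libraries, and within the series the difference was 2.27 (L, 1 old against 2 young) and 3.98 (N, 2 against 2). Clu, a secreted chaperone that binds lipids, was at 38.3, 29.2, 14.1 and 20.7 CPM in young and 147, 200 and 193 CPM in old libraries (2.81 ± 0.35, adjusted p = 0.00379). Its young L libraries also lay above the N libraries (within-series differences 2.12 and 3.51). Clca1, of a family of chloride channel regulators, was at 12.4, 10.5, 6.07 and 9.12 CPM in young and at 62.9, 58.4 and 55.2 CPM in old libraries (2.62 ± 0.31, adjusted p = 0.00379). The related Clca2 was at 1.77, 1.80, 0.801 and 1.56 CPM in young and 8.38, 7.59 and 7.68 CPM in old libraries (2.40 ± 0.39, adjusted p = 0.0259). For both genes the ages did not overlap. Their symbols follow the files and may follow an older naming, since newer annotation gives these names to other genes of the family. Which members they are is therefore not settled. Reads may be shared between members of the family.

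Also in this group, Abca4, a membrane transporter of retinoid lipids, was at 4.58, 2.90, 4.58 and 5.79 CPM in young and 21.4, 22.4 and 33.0 CPM in old libraries (2.52 ± 0.36, adjusted p = 0.0116). Lsr, a lipoprotein receptor that also builds cell junctions, was at 5.52, 7.71, 2.98 and 8.01 CPM in young and 21, 22.9 and 29.0 CPM in old libraries (2.00 ± 0.33, adjusted p = 0.0294). In both, every old library lay above every young one. Tm4sf1, a tetraspanin-like surface protein best known from endothelium and tumours, was called outside the naming rule and is named after its values were seen. It had 4, 1, 3 and 16 counts in the young libraries and 99, 131 and 51 in the old ones (3.87 ± 0.67, adjusted p = 0.0389). The endothelial marker Cdh5 had 0 counts in all 7 libraries, and Emcn was at 0.03 (adjusted p = 0.995). Kdr, another endothelial gene, did not overlap between ages but was not called (2.05 ± 0.57, adjusted p = 0.31). Over the 9 tested stromal and endothelial markers the median was 0.03, and 0.68 without Young MMP high 4 or -0.22 without Old MMP high 1. In 3 of the 9 (Kdr, Lpl and Pdgfrb) every old library lay above every young one, against 6.36% of all genes. The part of endothelial RNA in these results was not tested.

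Enzymes of detoxification and retinoid metabolism were called as well. Gstm2, a glutathione transferase, was at 13, 16.6, 20.3 and 17.8 CPM in young and at 56.9, 89.6 and 68.8 CPM in old libraries (2.08 ± 0.26, adjusted p = 0.00379). Other Gstm genes are close relatives that may share its reads. Gstm1 (-0.44), Gstm3 (-0.50), Gstm7 (-0.09), Gstm5 (0.06) and Gstm6 (1.59, adjusted p = 0.735) were not called. Aldh1a1, which oxidises retinaldehyde to retinoic acid, was at 52.0, 57.0, 69.6 and 36.4 CPM in young and 193, 204 and 135 CPM in old libraries (1.72 ± 0.25, adjusted p = 0.0116). Sult1a1, a sulfotransferase of phenols, was at 11, 11.4, 9.84 and 4.23 CPM in young and 28.4, 39.5 and 27.1 CPM in old libraries (1.79 ± 0.30, adjusted p = 0.0343). In both, Young MMP high 4 held the lowest value. Enpp5, of the family of nucleotide pyrophosphatases, was at 24.4, 26.0, 38.5 and 28.6 CPM in young and 83.2, 116 and 101 CPM in old libraries (1.77 ± 0.22, adjusted p = 0.00379). Its difference was 1.72 in the L and 1.70 in the N series. Ctsw, a cysteine protease best known from cytotoxic lymphocytes, rose by 1.91 ± 0.34 (adjusted p = 0.0455) from 7.51 to 10.6 CPM in young to 27.9 to 42.1 CPM in old libraries. It too stands outside the naming rule. Summed T and NK cell markers were at 246.9 to 316.3 CPM in young and 238.4 to 290.2 CPM in old libraries. Most of that sum was Nkg7 (mean 207.9 CPM in young and 177.5 CPM in old) and Lat (63.87 and 81.55 CPM). Of the 9 tested markers 4 lay above 0, among them Klrb1c (1.22, adjusted p = 0.757), and 5 below. Cd8a had 0 counts in all 7. The part of lymphocyte RNA in the Ctsw result was not tested.

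Of regulators, Nupr1, a small stress-induced chromatin protein, was at 19.1, 26.2, 18.3 and 24.4 CPM in young and at 48.4, 65.7 and 76.7 CPM in old libraries (1.53 ± 0.19, adjusted p = 0.00379). Rhoj, a small GTPase known from endothelium, was at 6.77, 5.01, 8.13 and 3.12 CPM in young and 19.9, 32.2 and 26.0 CPM in old libraries (2.18 ± 0.31, adjusted p = 0.0116). Nckipsd, an adaptor protein of the actin skeleton, was at 4.79, 8.11, 4.69 and 7.68 CPM in young and 18.5, 29.3 and 29.6 CPM in old libraries (2.03 ± 0.31, adjusted p = 0.0141). In all of these genes Old MMP high 1 was the lowest old library, and it still lay above every young one. Sbspon, which encodes a secreted protein with thrombospondin-type repeats, was nearly silent in young cells, with 3, 2, 2 and 13 counts, and had 93, 110 and 97 counts in old ones (4.25 ± 0.64, adjusted p = 0.0122). Hdac5, a class IIa histone deacetylase that shuttles between nucleus and cytoplasm, was at 20.9, 19.3, 12.1 and 22.2 CPM in young and 41.5, 55.2 and 55.1 CPM in old libraries. It rose by 1.44 ± 0.26 (adjusted p = 0.0455), and it stands outside the naming rule for this comparison.

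Only 2 genes passed in the lower direction. Ebi3, a subunit shared by the cytokines IL-27 and IL-35, was at 50.3, 44.8, 63.5 and 86.8 CPM in young and at 19.4, 19.2 and 20.2 CPM in old libraries (-1.64 ± 0.24, adjusted p = 0.0119). The old libraries lay close together, while the young ones spread more widely, with the highest value in Young MMP high 4. Slc24a5, an exchanger of sodium, potassium and calcium known from pigment cells, was at 33.5, 30.0, 25.2 and 29.7 CPM in young and at 4.24, 3.95 and 1.92 CPM in old libraries (log2 -3.13, SE 0.54, adjusted p = 0.0389). The next lower genes by p missed the threshold. They were Plxdc2 (-1.53, adjusted p = 0.0539), Ctla2a (-1.002, 0.0954), Iigp1 (-1.58, 0.123), Cyp2j9 (-1.16, 0.145), Ccl4 (-1.62, 0.158), Ms4a6c (-1.84, 0.161), Gimap6 (-0.90, 0.162) and Sub1 (-0.66, 0.162). Ctla2a, a cysteine protease inhibitor, was at 1410 to 2645 CPM in young and 783 to 1051 CPM in old libraries. The interferon-inducible GTPase Iigp1 and the chemokine Ccl4 also had no overlap between ages.

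Some called transcripts are noncoding or only predicted, and they are named after their values were seen. Gm5833, a lincRNA on chromosome 1, had 2, 2, 3 and 0 counts in young and 88, 65 and 59 in old libraries (5.20 ± 0.76, adjusted p = 0.0119). RP23-325F17.4 had 2, 1, 2 and 0 counts in young and 42, 47 and 42 in old libraries (4.97 ± 0.73, adjusted p = 0.0119). A230065H16Rik had 22, 2, 16 and 12 against 118, 116 and 91 counts (2.99 ± 0.52, adjusted p = 0.0389). Gm16587 (2.73, adjusted p = 0.0119) lies within Selp on the opposite strand, and Gm4673 (1.91, adjusted p = 0.0389) overlaps Lsr likewise. The strand setting of the counting is not given in the sources used here, so reads of these 2 antisense genes and of Selp and Lsr cannot be told apart. The same limit holds where genes that were not called overlap a called gene on the opposite strand. Gm16548 (2.41, adjusted p = 0.0954) overlaps Selp, and Gm16712 (-1.265, adjusted p = 0.142) overlaps Ebi3. Gm17077 (0.87) overlaps Lsr, Myef2 (-0.37) overlaps Slc24a5 and Fibp (-0.025) overlaps Ctsw.

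**Figure D2:**
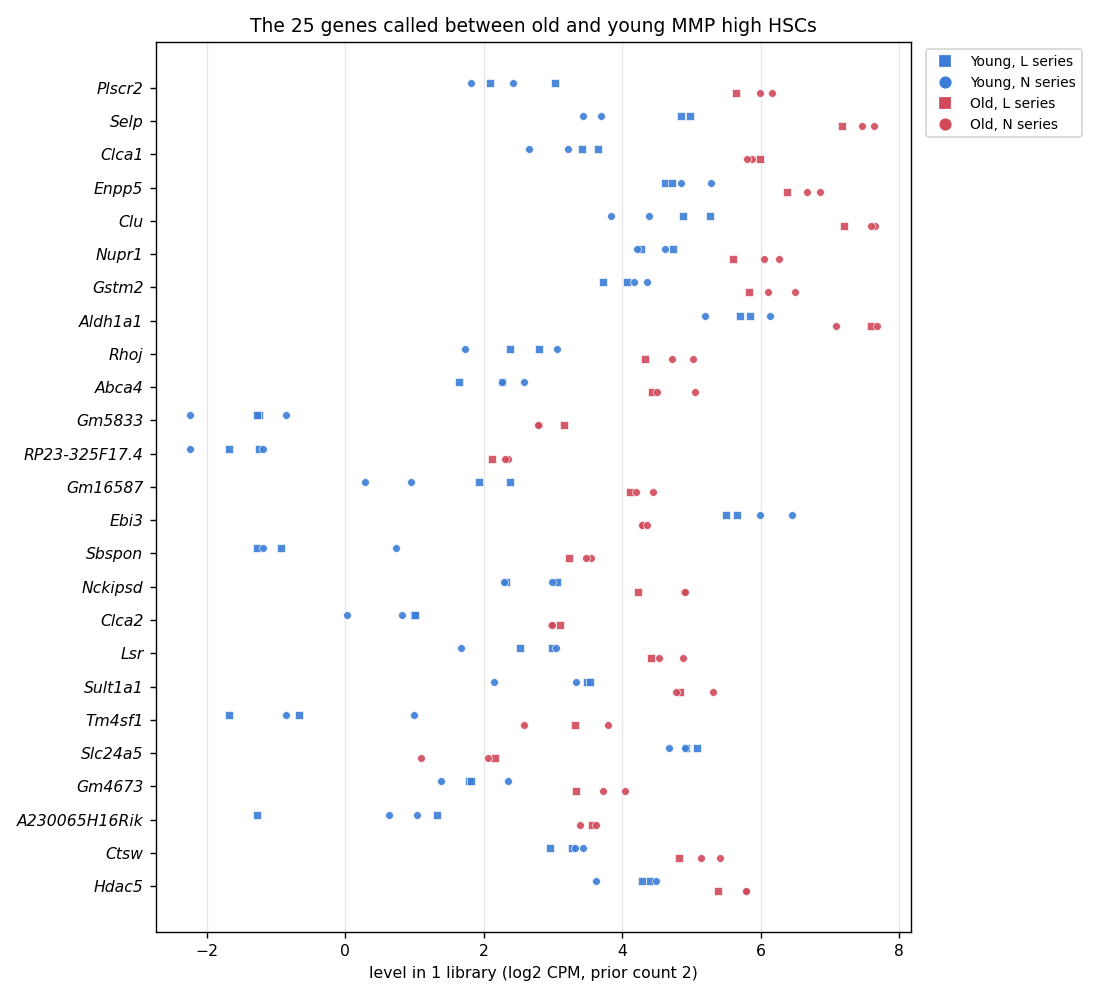
Level of the 25 called genes in each MMP high library (log2 CPM with a prior count of 2, a log scale), in order of p. Blue marks are young and red marks old libraries, squares the L series and circles the N series; in every row the red marks lie to 1 side of the blue ones.

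The calls depended on single libraries. Plscr2, Selp, Clca1, Enpp5, Clu, Nupr1 and Gstm2 were called in each of the 13 fits that left out 1 library, and the other 18 were lost in at least 2 of them. The count of calls was 9 without Old MMP high 2, 9 without Old MMP high 3, 14 without Old MMP high 1, 10 without Young MMP high 2, 15 without Young MMP high 3 and 40 without Young MMP low 3. That library enters the shared spread and the filter on low counts, with 18075 genes tested without it. Without Young MMP high 4, the library that stood apart, it was 27, with 20 of the 25 among them. In the N series alone 4 genes were called, Plscr2, Selp, Clu and Gm16587. All 25 kept their direction in the 24 alternative fits.

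In the GENCODE M21 annotation of GRCm38, 21 of the 25 symbols have a single position, of which 18 are protein coding, 2 antisense and 1 a lincRNA. Plscr2 lies at chr9:92275602-92297752, Selp at chr1:164115264-164150026, Clu at chr14:65968483-65981547, Enpp5 at chr17:44078813-44086567, Ebi3 at chr17:55952640-55957022 and Slc24a5 at chr2:125068124-125088677. Nupr1 (chr7:126623249-126630861) and Sult1a1 (chr7:126672865-126676432) are neighbours on the same strand, 42.0 kb apart. Apart from these and the 2 antisense pairs, no called genes among the 21 lay within 50 kb of each other. Clca1 and Clca2, of the same family, have no position here and were not checked. The called genes had 49 tested neighbours within that distance that were not called and overlapped no called gene. Of these, 30 had a fold change above 0, against 8580 of all 17125 genes, with a median of 0.085 against 0.001. At an unadjusted p of 0.05, 5 of the 49 were higher and 0 lower, against 4.76% and 2.85% of all genes. Plscr1, the scramblase paralog 3.3 kb from Plscr2, was among these 5, at 0.88 (adjusted p = 0.139). So were Scara3, 14.5 kb from Clu (5.24, adjusted p = 0.13), and Efemp2, 5.4 kb from Ctsw (2.61, adjusted p = 0.424). The rest were Arhgap29 near Abca4 (0.74) and Enpp4 near Enpp5 (0.41). F5, the coagulation factor gene 1.8 kb from Selp, was at 0.29 (adjusted p = 0.944).

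RefSeq promoters (GRCm38.p6, 250 bases before to 50 after the start) were found for 14 of the 25 called genes and for 10677 genes tested. The letters TGANTCA, which read the same on both strands, occurred in 4 of the 14 promoters (28.6%) and in 5.2% of the 10677. They are a loose form of the AP-1 motif TGA(C/G)TCA, since N allows any base. Lsr (TGAGTCA) and Aldh1a1 (TGACTCA) hold the stricter form, and Selp and Slc24a5 match only through TGATTCA. The stricter form was not counted over all promoters. The letters GGGCGG, a GC box searched on both strands, occurred in 28.6% of the called and 62.0% of all promoters, and CCAAT in 42.9% and 38.6%. The remaining motifs occurred in 0 to 5 of the 14, E2F letters (TTCGCGC or TTGGCGC) in 0 against 6.9% of all, and the metal response element core (TGCACNC or TGCGCNC) in 35.7% against 35.4%. TATAAA occurred in 7.1% of both, AGATAA in 7.1% against 6.7%, CACGTG in 2 of 14 against 1073 of 10677 and TTGCNNAA in 14.3% against 8.6%. These are counts of letters in few promoters and say nothing of binding. The 4 promoters with TGANTCA are shown to let the match and its surroundings be read beside the levels given above. They belong to 3 genes that rose (Selp, Lsr and Aldh1a1) and 1 that fell (Slc24a5), and they were picked after the matches were seen. Each line gives the 250 bases before the start, 5′ to 3′ on the strand of the gene, at chr1:164115014-164115263 (plus strand) for Selp, chr7:30973470-30973719 (minus) for Lsr, chr19:20492333-20492582 (plus) for Aldh1a1 and chr2:125067877-125068126 (plus) for Slc24a5, with the match in capitals. The matches begin 139, 65, 57 and 9 bases before the start.
Selp: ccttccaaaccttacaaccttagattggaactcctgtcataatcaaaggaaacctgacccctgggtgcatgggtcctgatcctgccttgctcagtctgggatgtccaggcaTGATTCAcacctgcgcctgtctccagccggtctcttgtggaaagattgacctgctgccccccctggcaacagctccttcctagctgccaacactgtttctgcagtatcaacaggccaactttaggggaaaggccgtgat
Lsr: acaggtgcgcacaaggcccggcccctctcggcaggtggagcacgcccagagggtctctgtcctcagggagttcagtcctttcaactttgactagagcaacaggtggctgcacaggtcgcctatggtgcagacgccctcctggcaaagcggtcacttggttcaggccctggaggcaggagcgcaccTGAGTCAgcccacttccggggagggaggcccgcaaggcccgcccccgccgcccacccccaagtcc
Aldh1a1: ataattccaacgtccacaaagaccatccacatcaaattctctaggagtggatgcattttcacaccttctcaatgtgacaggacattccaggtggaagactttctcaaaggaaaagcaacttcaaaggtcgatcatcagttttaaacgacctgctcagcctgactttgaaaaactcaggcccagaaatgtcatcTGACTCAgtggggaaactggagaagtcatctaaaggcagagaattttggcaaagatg
Slc24a5: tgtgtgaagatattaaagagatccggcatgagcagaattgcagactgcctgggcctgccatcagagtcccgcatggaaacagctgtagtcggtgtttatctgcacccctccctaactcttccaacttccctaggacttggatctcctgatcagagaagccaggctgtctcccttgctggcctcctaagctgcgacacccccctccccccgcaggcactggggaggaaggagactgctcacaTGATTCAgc

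Gene lists were described by their counts and medians beside those of all genes. The lists were chosen with earlier results of these data known, so their counts and medians are description and no independent support for earlier work. Of 52 tested genes reported higher in aged HSCs by earlier work, 12 rose and none fell, against the 0.134% of all genes. The 12 were Plscr2, Selp, Clca1, Clca2, Enpp5, Clu, Nupr1, Gstm2, Aldh1a1, Sbspon, Sult1a1 and Tm4sf1. In 31 of the 52 every old library lay above every young one, against 6.36% of all genes, and the list's median was 1.06 against 0.001. Over the alternative fits the median stayed between 0.89 and 1.22. Members that missed the threshold included Vwf, the platelet adhesion protein, at 82.3, 84.5, 44.5 and 44.7 CPM in young and 156, 255 and 310 CPM in old libraries (1.91 ± 0.35, adjusted p = 0.0506). Its difference was 0.90 in the L and 2.65 in the N series. Bmpr1a, a BMP receptor, was at 0 to 1.60 CPM in young and 10.8 to 14.9 CPM in old libraries (4.06 ± 0.79, adjusted p = 0.0757). The LIM protein gene Fhl1 (1.11, adjusted p = 0.0685) and the receptor gene Neo1 (1.71, adjusted p = 0.0804) did not overlap between ages either. Of the immediate early genes on this list, Fos was at 0.33, Jun at 0.005 and the phosphatase Dusp1 at -0.48 (adjusted p = 0.574), with 1849 to 2984 CPM in young and 1484 to 1716 CPM in old libraries.

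Among 24 tested genes reported lower in aged HSCs, Ebi3 fell and none rose, with a median of -0.18 (-0.28 without Old MMP high 1) and 16 below 0. Rps4l, annotated as a transcribed pseudogene of a ribosomal protein gene, at 23.4 to 33.7 CPM in young and 15.3 to 17.0 CPM in old libraries, was not called (-0.80 ± 0.22, adjusted p = 0.31), and its relatives may share its reads. Rnase6, a secreted ribonuclease, was at -0.80 (SE 0.28, adjusted p = 0.505). The serine synthesis gene Phgdh was at -0.27 (adjusted p = 0.645), and Cd34, the surface marker of progenitors, at -0.36 (adjusted p = 0.762). The DNA methyltransferase gene Dnmt1 lay in the other direction, at 0.68 (adjusted p = 0.465), without overlap between ages.

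**Figure D3:**
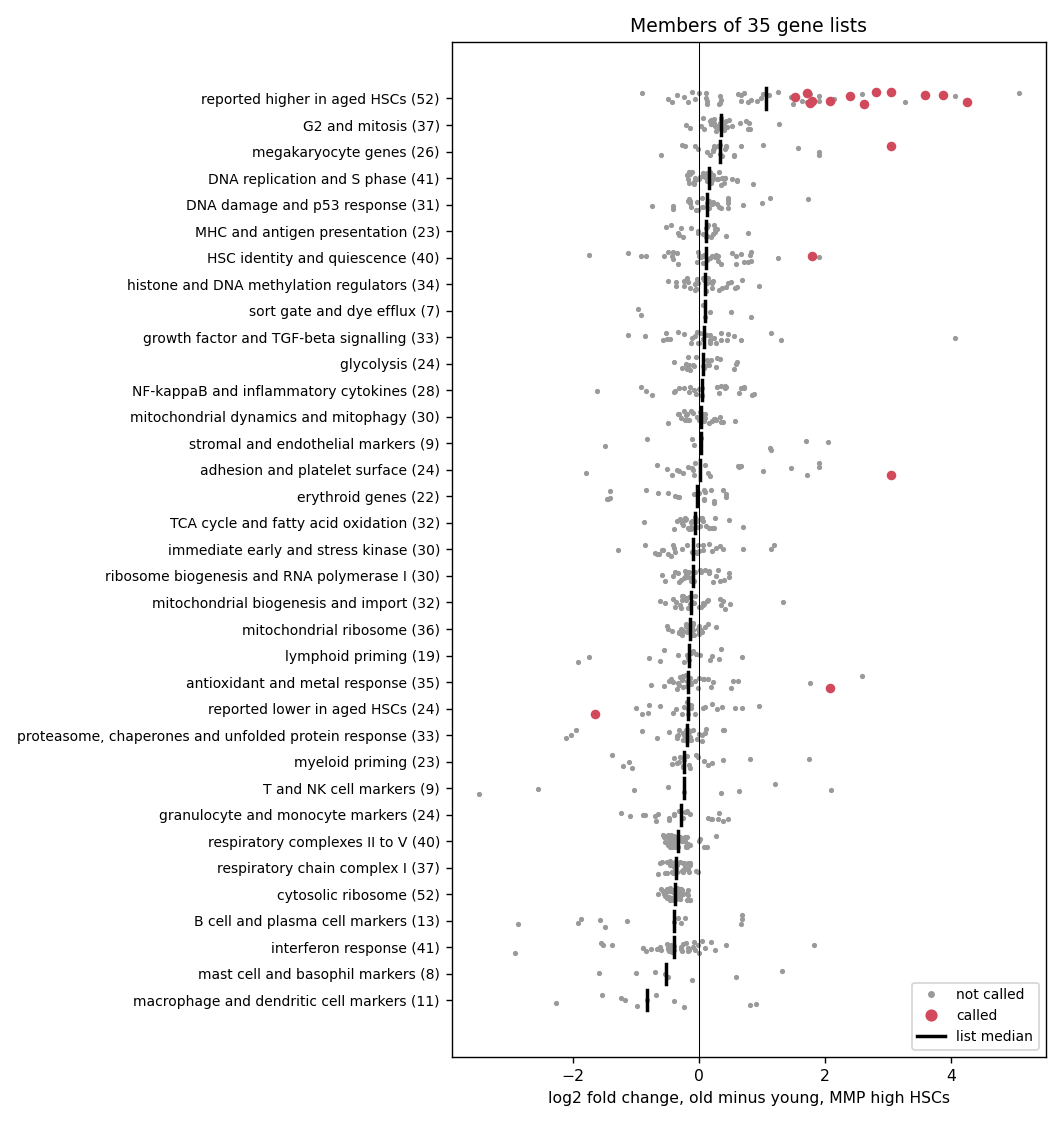
Log2 fold change of old over young MMP high HSCs for the tested members of 35 gene lists (number tested in brackets), grey where not called and red where called in either direction, with a black bar at each list's median. The list of genes reported higher in aged HSCs has its median at 1.06 and holds 12 called members, and of the other lists only the mast cell and the macrophage markers have a median farther than 0.4 from 0.

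Genes of HSC identity and quiescence had values on both sides of 0. Of 40 tested, Sult1a1 rose, none fell, and the median was 0.11. It was -0.04 without Old MMP high 2 and 0.27 without Young MMP high 4. Hoxb5, a homeobox gene that marks long-term HSCs, was at 1.26, and Fgd5, another HSC marker, at 0.83, both without overlap between ages and not called. On the other side, Ltb, a lymphotoxin, was at 36.0 to 63.0 CPM in young and 10.2 to 18.1 CPM in old libraries (-1.74 ± 0.57, adjusted p = 0.443), and the signalling inhibitor Socs2 was at -1.12 (SE 0.32, adjusted p = 0.329). Ifitm1, an interferon-induced membrane protein gene, was at 248 to 399 CPM in young and 168 to 178 CPM in old libraries (-0.83 ± 0.20, adjusted p = 0.184). The abundant members Egr1 (0.06) and Ifitm3 (-0.42) were not called. Among the genes of the sort gate, Slamf1, which encodes CD150, was at 25.9, 26.6, 29.3 and 27.5 CPM in young and 45.9, 54.0 and 45.3 CPM in old libraries (0.83 ± 0.17, adjusted p = 0.0949). Ly6a, which encodes Sca1, was at 41.4, 49.5, 52.0 and 72.2 CPM in young and 32.1, 31.9 and 21.8 CPM in old libraries (-0.91 ± 0.27, adjusted p = 0.357). Neither overlapped between ages, whereas both ages overlapped for Kit, at 0.18 (adjusted p = 0.855), and for Cd48, at -0.96 ± 0.72 (adjusted p = 0.797). Abcb1a (0.51), Abcb1b (0.06) and Abcg2 (0.09), transporters that can export dyes, were not called.

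Of 26 tested megakaryocyte genes, Selp rose, and 21 lay above 0 with a median of 0.33. The median was 0.21 without Old MMP high 3 and 0.61 in the N series alone. The platelet integrin subunit Itga2b (CD41) was at 266, 337, 183 and 267 CPM in young and 338, 589 and 676 CPM in old libraries (1.02 ± 0.31, adjusted p = 0.386). Its partner Itgb3 was at 22.3, 20.6, 17.9 and 2.00 CPM in young and 30.0, 69.1 and 77.7 CPM in old libraries (1.91 ± 0.60, adjusted p = 0.405). In both genes Old MMP high 1 lay closest to the young range, and the L series difference was 0.17 and 0.48 against 1.51 and 3.54 in the N series. The transcription factor genes Gfi1b (0.67, adjusted p = 0.19) and Nfe2 (0.43, adjusted p = 0.432) did not overlap between ages. Pf4, the platelet chemokine, lay at -0.60 (adjusted p = 0.8). Of 24 adhesion and platelet surface genes, 1 was called (Selp), 12 lay above 0 and 12 below. The median was 0.02, and -0.04 without Young MMP high 1. The list's summed level was 1734 to 1860 CPM in young and 2181 to 2748 CPM in old libraries. Abundant members weigh most in that sum, among them Itga2b (mean 263.1 CPM in young and 534.4 CPM in old) and Cd63 (385.7 and 367.3 CPM). The adhesion gene Esam was at 0.65 (adjusted p = 0.31).

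Cell cycle genes were not called in either direction. The 37 tested G2 and mitosis genes had a median of 0.35, and 35 of them lay above 0. This median was 0.12 without Young MMP high 4, in which their summed level was 2094 CPM against 3214 to 4000 CPM in the other young libraries and 3969 to 4212 CPM in the old ones. Plk1, a mitotic kinase, was at 1.28 (adjusted p = 0.456), Cdc20, which activates the anaphase ligase, at 0.75 (adjusted p = 0.707), and Top2a, a topoisomerase of dividing cells, at 0.36 (adjusted p = 0.88). The condensin subunit Ncapd2 was at 79.0 to 139 CPM in young and 132 to 202 CPM in old libraries (0.80 ± 0.20, adjusted p = 0.24). The 41 DNA replication genes had a median of 0.16, or 0.11 without Old MMP high 2. Mcm6 of the replicative helicase was at 815 to 883 CPM in young and 828 to 895 CPM in old libraries (0.02, adjusted p = 0.987), and Mcm2 was at 0.22 (adjusted p = 0.86). DNA damage and p53 response genes, 31 tested, had a median of 0.13 with none called (0.06 without Old MMP high 2), and Cdkn1a, the cell cycle inhibitor p21, lay at -0.02 (adjusted p = 0.997).

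Genes of mitochondrial respiration lay slightly below 0 as a group, with none called. All 37 tested genes of respiratory complex I had a fold change below 0, with a median of -0.35, and in 15 of them every old library lay below every young one (5.1% of all genes). Their summed level was 4757, 5061, 4836 and 4581 CPM in the young libraries and 4224, 3370 and 4151 CPM in the old ones. The summed levels did not overlap, and Old MMP high 2 was the lowest. Without that library the median was -0.20. Ndufa4, a small subunit, was at 238.4 to 269.2 CPM in young and 123 to 212 CPM in old libraries (-0.53 ± 0.22, adjusted p = 0.586), and Ndufb8 was at -0.34 (adjusted p = 0.656). Of 40 genes of complexes II to V, 35 lay below 0 (median -0.34, and -0.20 without Old MMP high 2). Cox4i1, of cytochrome oxidase, was at -0.29 (adjusted p = 0.725), while Atp5b and Atp5a1, large subunits of ATP synthase, were at 0.09 and 0.14. Mitochondrial biogenesis and import (32 genes, median -0.13), mitochondrial ribosome (36, -0.14) and dynamics and mitophagy (30, 0.03) had no called member. The median of the first ran from -0.18 (without Young MMP high 4) to -0.06 (without Young MMP high 1). That of dynamics turned below 0 without Young MMP high 1 or 3 or Old MMP high 2 or 3, to -0.09 at the lowest (Old MMP high 3). Genes encoded in mitochondrial DNA had 0 counts in every library and could not be tested.

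The 52 tested genes of the cytosolic ribosome all lay below 0 (median -0.38) with none called. Their summed level was 35220, 33860, 36350 and 28970 CPM in Young MMP high 1 to 4 and 29640, 25140 and 24830 CPM in Old MMP high 1 to 3. Young MMP high 4 lay below Old MMP high 1, so the ages overlapped. Rplp0 was at -0.18 (adjusted p = 0.853) and Rpl13 at -0.28 (adjusted p = 0.725). Chaperone, proteasome and unfolded protein response genes (33 tested) had a median of -0.19, with Hsp90ab1 at -0.35 (adjusted p = 0.562), and ribosome biogenesis genes (30) had a median of -0.09, or -0.17 without Old MMP high 3. Under scaling to total counts all these medians moved up by about the shift of all genes, from 0.001 to 0.08, and kept their sign.

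Of 35 antioxidant and metal response genes, Gstm2 was called higher and none lower, while 23 lay below 0 and 12 above. The list's median was -0.16, and without 1 library it ran from -0.19 (Old MMP high 2) to -0.13 (Young MMP high 2). The metallothioneins Mt1 and Mt2, which bind zinc and copper, were not called. Mt1 was at 35.1, 33.5, 45.7 and 12.9 CPM in young and 108, 84.3 and 132 CPM in old libraries (1.77 ± 0.41, adjusted p = 0.171), and Mt2 was at 0.937 to 4.21 CPM in young and 12.1 to 16.8 CPM in old libraries (2.59 ± 0.61, adjusted p = 0.177). Both were without overlap between ages. In contrast, catalase (Cat) was at 103.5 to 141.7 CPM in young and 74.4 to 82.8 CPM in old libraries (-0.56 ± 0.17, adjusted p = 0.37), and the glutathione peroxidase Gpx1 was at -0.41 (adjusted p = 0.586). Glycolysis genes (24 tested) had a median of 0.07, with Ldha at 0.09 and Pkm at 0.30, and genes of the TCA cycle and fatty acid oxidation (32) a median of -0.06, which was 0.02 under scaling to total counts. Without 1 library the glycolysis median ran from -0.05 (Old MMP high 3) to 0.11 (Old MMP high 1) and also lay below 0 without Young MMP high 1, and that of the TCA cycle list from -0.12 (Old MMP high 2) to -0.02 (Young MMP high 4).

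Interferon response genes had a median of -0.40 over 41 tested, with 34 below 0 and none called. In 7 of them every old library lay below every young one, against 5.1% of all genes. Xaf1, an interferon-induced apoptosis factor, was at 19.2 to 29.2 CPM in young and 12.2 to 17.1 CPM in old libraries (-0.75 ± 0.24, adjusted p = 0.432), and Ifi27 was at -0.49 (adjusted p = 0.475). The immunoproteasome subunit Psmb8, the most abundant member, was at -0.24 (adjusted p = 0.735). Genes of MHC and antigen presentation (23 tested) had a median of 0.12, with H2-D1 at 0.19 and B2m, the shared light chain of class I molecules, at -0.52 (adjusted p = 0.417). NF-kappaB and inflammatory cytokine genes (28, median 0.05) and immediate early and stress kinase genes (30, median -0.08) had none called. Neither had growth factor and TGF-beta signalling genes (33, median 0.08) or histone and DNA methylation regulators (34, median 0.10). These medians turned or shrank when 1 library was left out. They were -0.03 for NF-kappaB genes without Old MMP high 2, -0.01 for MHC and for growth factor genes without Old MMP high 3, and 0.01 for methylation regulators without Young MMP high 4. That of immediate early genes was 0.13 without Young MMP high 4, 0.07 without Old MMP high 1 and -0.31 without Young MMP high 1.

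Lineage genes other than those of megakaryocytes were not called. Lymphoid priming genes (19 tested) had a median of -0.15, which was -0.40 without Old MMP high 1, -0.26 without Young MMP high 2 and 0.12 without Young MMP high 3. Of its members 6 lay above 0 and 13 below. The abundant transcription factor genes Mef2c (0.32, adjusted p = 0.784) and Tcf3 (0.69, adjusted p = 0.681) were above 0. Bcl11a was at -0.04 and the tetraspanin Cd37 at -0.55 (adjusted p = 0.585). Myeloid priming genes (23) had a median of -0.23 and erythroid genes (22) of -0.03, or 0.05 under scaling to total counts. Without Young MMP high 3, the library with the most granulocyte transcripts, the myeloid median was 0.49, without Old MMP high 2 it was 0.13, and without Old MMP high 1 it was -0.52. The erythroid median ran from -0.34 (without Young MMP high 4) to 0.05 (without Young MMP high 1). Lyz2, lysozyme of myeloid cells, was at -0.39 (adjusted p = 0.949), and the globin Hba-a1 was at 12730, 786, 6876 and 607 CPM in young and 3442, 650 and 1671 CPM in old libraries (-1.45, adjusted p = 0.81). No marker of another marrow cell type was called. Of the marker lists, granulocyte and monocyte (24 tested, median -0.28), B cell (13, -0.39), T and NK cell (9, -0.23), macrophage and dendritic cell (11, -0.83) and stromal and endothelial markers (9, 0.03) had summed levels that overlapped between ages. Their medians depended on single libraries. The granulocyte median was 0.51 without Young MMP high 3, 0.09 without Old MMP high 2 and -0.80 without Old MMP high 1. The T and NK cell median was 0.01 without Old MMP high 3, 0.25 without Young MMP high 1 and 0.44 without Young MMP high 3. Leaving out 1 library gave -1.77 (Old MMP high 1) to -0.21 (Young MMP high 1) for B cell, -1.52 (Old MMP high 1) to -0.38 (Young MMP high 1) for macrophage, -1.40 (Old MMP high 1) to -0.05 (Young MMP high 3) for mast cell and -0.22 (Old MMP high 1) to 0.68 (Young MMP high 4) for stromal and endothelial markers. B cell markers summed to 73.6 to 313 CPM in young and 65.9 to 202.8 CPM in old libraries. Stromal and endothelial markers summed to 54.2 to 110.1 CPM in young and 82 to 115.1 CPM in old libraries. Macrophage markers summed to 83.7 to 159.2 and 78.6 to 94.9 CPM, and mast cell and basophil markers (8 tested, median -0.51) to 339.1 to 475.4 and 461.7 to 661.6 CPM, a list that includes the HSC gene Gata2. Of the T and NK cell markers 7 of 16, and of the stromal and endothelial markers 4 of 17, had at most 10 counts in every MMP high library.

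**Figure D4:**
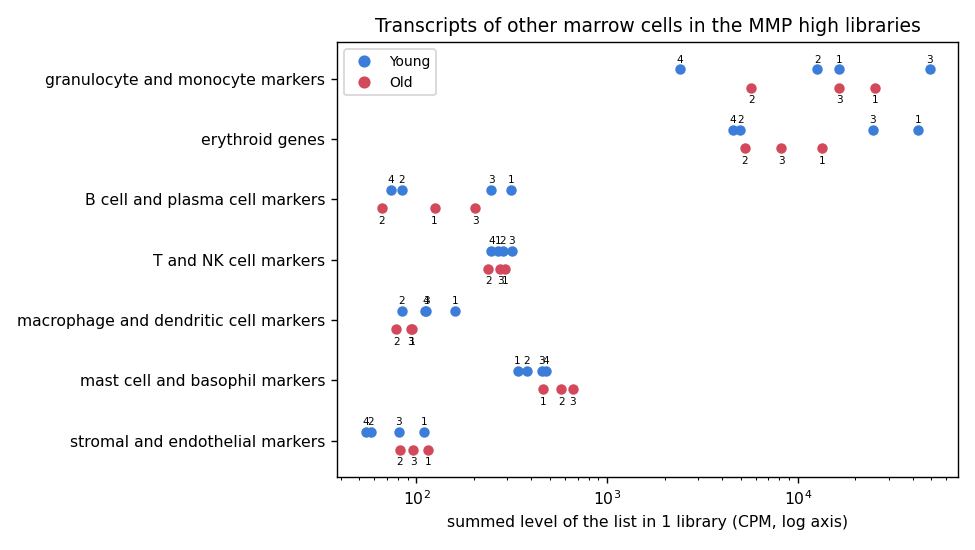
Summed level in CPM (log axis) of markers of other marrow cells in each MMP high library, blue for young and red for old, with the replicate number beside each point. Granulocyte markers span 2408 to 49190 CPM in the young and 5686 to 25480 CPM in the old libraries, and the ages overlap in every list.

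The same ages can be compared in MMP low HSCs, which come from other libraries but from the same fit. There 30 genes were called (0.175%), 25 higher and 5 lower in old cells. Of these, 15 were also called in MMP high HSCs, 14 higher and 1 lower (Ebi3), which is 60% of the MMP high calls and 50% of the MMP low calls. Of the 25 MMP high calls 24 had the same sign in MMP low HSCs, and all 30 MMP low calls had the same sign in MMP high HSCs, against 56.4% of all genes tested. The 10 named MMP low calls of smallest p were at these log2 changes in MMP high and MMP low HSCs: Nupr1 1.53 and 2.66, Selp 3.05 and 3.47, Rps4l -0.80 and -2.30, Sbspon 4.25 and 7.36, Clca1 2.62 and 3.28, Plscr2 3.58 and 3.16, Clca2 2.40 and 3.83, Mt2 2.59 and 5.79, Gstm2 2.08 and 1.98, and Rnase6 -0.80 and -2.13. Among the 23 genes that rose in MMP high HSCs, the mean level was higher in old MMP low than in old MMP high HSCs for 19, and higher in young MMP low than in young MMP high HSCs for 19. Among all genes with a fold change above 0 in MMP high HSCs these shares were 41.5% and 56.7%. In 15 the order of mean levels was old MMP low, old MMP high, young MMP low and young MMP high, from high to low, against 8.84% of all genes above 0. Part of this order is set by choosing genes that were higher in old than in young MMP high HSCs. Neighbours in this order were not tested.

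**Figure D5:**
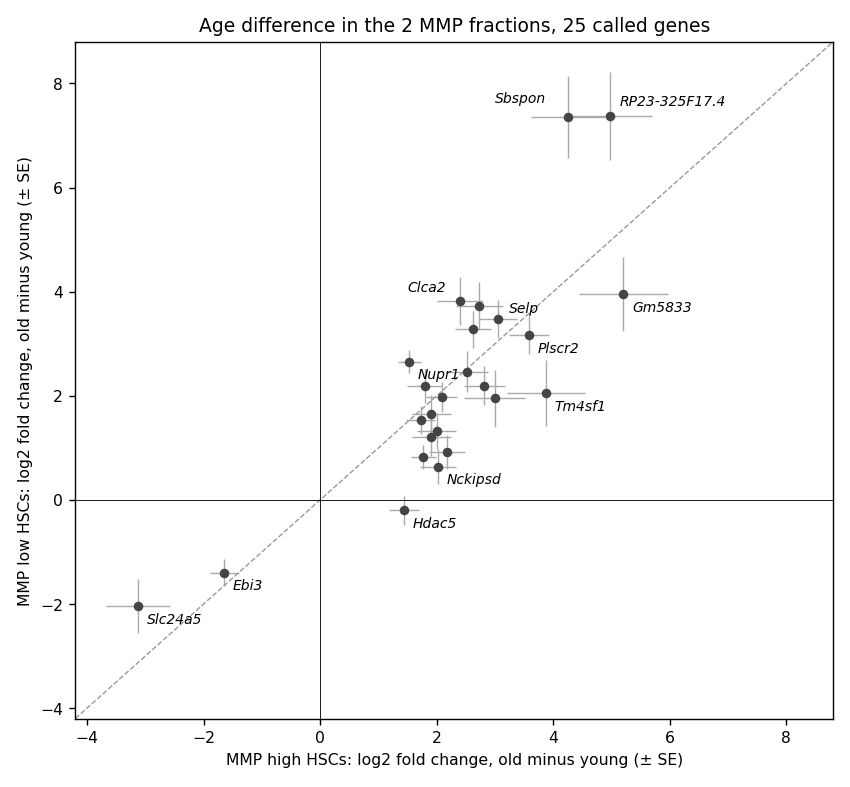
Log2 fold change of old over young in MMP high HSCs (horizontal axis) and in MMP low HSCs (vertical axis) for the 25 genes called in MMP high HSCs, with bars of 1 SE and a dashed line where both are equal. All genes shown but Hdac5 lie in the quadrants of equal sign.

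The test of the difference itself, an interaction of age and MMP, called 0 genes in edgeR (smallest adjusted p = 0.9999), with 693 genes at an unadjusted p of 0.05 (4.05%), and DESeq2 called 2. With no filter on low counts edgeR called 58, so the absence of calls in edgeR holds only for the filtered genes. The genes of smallest p with a more positive change in MMP high HSCs were Pomt1, a mannosyltransferase gene (0.61 in MMP high and -1.12 in MMP low), Rps4l, Hdac5, the nucleoporin Nup62 (0.65 and -0.55) and the replication kinase Cdc7 (0.19 and -0.96). Hdac5 was at 21.6, 22.6 and 25.5 CPM in young and 15.7, 17.5 and 27.7 CPM in old MMP low libraries, so its ages overlapped there. The difference for Hdac5 was 1.63 ± 0.38 (unadjusted p = 0.000722, adjusted p = 0.9999). Those with a more negative change were the kinase Prkcz (0.70 in MMP high, and in MMP low 0 counts in every young library against 20, 60 and 32 in the old ones), Nupr1 (difference -1.13 ± 0.28), the polycomb gene Pcgf2 (-0.42 and 2.58), Zmat2 (-0.52 and 0.52) and the ligand gene Bmp4 (-0.58 and 2.85). Of the 25 called genes, 7 had an unadjusted interaction p under 0.05, against 4.05% of all genes, and none passed after adjustment. Enpp5, Rhoj, Nckipsd and Hdac5 had the larger change in MMP high HSCs, and Nupr1, Sbspon and Clca2 in MMP low HSCs. The 25 were chosen by their change in MMP high HSCs, which is itself part of the interaction. That choice therefore sets part of this count and of these differences. Replication genes had a median of 0.16 in MMP high and -0.50 in MMP low HSCs, G2 and mitosis genes 0.35 and -0.21, and ribosomal protein genes -0.38 and 0.13, and the difference of these medians was not tested.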

How the data were processed

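RNA of sorted mouse HSCs was sequenced in 13 libraries. The deposited files hold raw counts for 43280 gene symbols, whole numbers with no header. Per the submitters' processing notes, reads were handled with Trim Galore and STAR 2.7 on GRCm38. Neither the counting tool nor its strand setting or annotation is given in the sources used here. Counts were analysed in R 4.3.3 with edgeR 4.0.16: filterByExpr (minimum count 10, minimum total 15), TMM scaling and 1 robust quasi-likelihood fit of 4 group means to all 13 libraries (9 residual degrees of freedom). The fit was tested on simulated data. CPM values use TMM-scaled library sizes, and SE is the log2 fold change divided by the square root of F. Tests are two-sided. Groups follow the sample titles.

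Named genes are up to 15 called genes of smallest p in each direction without predicted genes, the genes of smallest p up to 10 where fewer were called, 5 in each direction for the interaction, 2 to 4 members of each list (called, then most abundant), the sort gate genes and 10 MMP low calls. Others are named after their values were seen, and a few that the rule names are not reported here. The 35 lists (948 genes, 907 tested), their members and the tests were chosen with earlier results of these data known. Same-numbered old and young libraries had residual correlations of 0.286, 0.067 and -0.012, and the other old and young pairs -0.257 to 0.229. So few values cannot decide whether the numbers pair libraries, and the labels do not say. The main fit used no pairing. Alternatives were other scalings and filters, DESeq2 1.42.0, limma voom 3.58.1, the library series, a replicate block and left-out libraries.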

Additional observations from a re-analysis of the deposited data

Results flagged for a closer look

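Each value below was far from the other young MMP high libraries, judged by its gap to the nearest library over the whole range of the 4. Of 120 such groups of values looked at, 7 were far enough, and chance gives about 1 in 20. All 7 concern Young MMP high 4, the library at the far end of the first principal component. Sbspon was at 1.45 CPM there against 0.20 to 0.31 in the other 3 young libraries. Ctla2a was at 2645 CPM against 1410 to 1590. Esam was at 130 CPM against 109.5 to 112.2, catalase (Cat) at 141.7 CPM against 103.5 to 107.1, and the helicase subunit Mcm2 at 544.0 CPM against 386 to 408.6. Ndufa4 was lower, at 238.4 CPM against 265 to 269.2. The summed level of genes reported lower in aged HSCs was 5041 CPM against 3628 to 3776. For all of these but Mcm2 the young libraries still did not overlap the old ones. Without Young MMP high 4, 27 genes were called, of which 20 were among the 25.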

How the results depend on the processing

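The count of 25 genes called between old and young MMP high HSCs was 25 with DESeq2's size factors in edgeR, 26 with total count scaling, 31 with a minimum count of 50, 20 in limma voom and 21 with the library series as a covariate. It was 150 in DESeq2, 211 with no filter on low counts and 4 in the N series alone. Leaving out 1 library gave 9 to 40. With a replicate block it was 27, of which 20 were among the 25, though the labels do not say whether same-numbered libraries are paired. No other library shares the number of Young MMP high 4. In the block fit that library therefore drops out of the contrast, much as when it is left out. The 7 MMP high libraries alone gave 20, with 16 of the 25. Without Young MMP high 4 and Young MMP low 1 together it was 37, with 21. The interaction of age and MMP called 58 genes with no filter, 2 in DESeq2 and 0 in the other fits that could test it. All 25 genes kept their direction. Directions near 0 turned when 1 library was left out, for Abcb1b (-0.00928 to 0.129), Abcg2 (-0.0207 to 0.163), Mcm6 (-0.0141 to 0.0258), Atp5b (-0.00775 to 0.131) and Lyz2 (-0.717 to 0.399). The cause was not tested. Depth limits genes of few counts: Sbspon, Tm4sf1, Gm5833 and RP23-325F17.4 had 0 to 16 counts in a young library, and their fold changes are the least exact.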
